A study of Mus musculus with 3 samples.

Results

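The genes described here are those of the bone morphogenetic protein (BMP) and transforming growth factor β (TGF-β) superfamily pathway. They were chosen by a rule on gene names, with earlier results of these data known. The rule covers the ligands of the Bmp, Gdf, inhibin and Tgfb families, their receptors and the Smad genes. It also covers the Id targets and antagonists, among them Nog, Chrd, Grem1 and Bambi. The rule found 57 genes among the 51826 of the deposited gene table, each on 1 row. Of these, 49 reached a count of 20 in at least 1 library and are called measured, against 18074 of all genes. RNA came from spinal cord of C57BL/6 mouse embryos at embryonic day 13.5. In dE3 embryos Nestin-Cre deleted the floxed exon 3 of Ctnnb1, described by the submitters as gain of function. In cKO embryos Nestin-Cre deleted the floxed exons 2 to 6, described as loss of function. The WT embryos were wild type, and the labels do not say whether they carried Cre or how many embryos each of the 3 libraries holds. Nestin-Cre acts in neural progenitors and their descendants, so cells in which the Cre is not active keep the intact gene. Each genotype was 1 library, so no difference has a replicate check and no p-value was computed. The values compare these libraries and not the genotypes at large.

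BMP and TGF-β ligands are secreted dimers that join type I and type II receptor kinases on the cell surface. The type I kinase then phosphorylates receptor Smads, namely Smad1, Smad5 and Smad9 for most BMPs and Smad2 and Smad3 for TGF-βs and activins, which enter the nucleus with Smad4. In the developing spinal cord, BMPs from the roof plate and the overlying ectoderm pattern the dorsal progenitors, and antagonists such as noggin and chordin bind the ligands and limit their range. The Id genes are common readouts of BMP signals, and their products block basic helix-loop-helix factors that drive neuron production. Ctnnb1 encodes β-catenin, the carrier of canonical Wnt signals, which act on the same dorsal progenitors.

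The libraries held 34790053 (dE3), 33048837 (cKO) and 32167470 (WT) estimated counts. Ctnnb1 stood at 461 CPM (counts relative to library size, scaled by the trimmed mean of M values, TMM) in dE3, 422 in cKO and 544 in WT. That gene total includes exons that neither allele removes and cells that Cre did not reach, so it is a weak check of the labels. Markers of the labelled tissue were present throughout: the neuron list of 7 genes summed to 5135, 5281 and 5214 CPM in dE3, cKO and WT. Genes of neighbouring tissues differed between the libraries. The 11 skeletal muscle markers summed to 205 CPM in dE3, 54.6 in cKO and 16.8 in WT, and 11 of 11 reached a 2-fold excess over WT in dE3. The 11 cartilage and vertebra markers summed to 933, 424 and 142 CPM, with the same 11 of 11 in dE3. The 11 meninges and mesenchyme markers summed to 1487, 1655 and 815 CPM, and no marker of these 3 lists was at 0 in any library. Many superfamily genes are also used by cartilage, mesenchyme and vessels. The part of those cells in the differences below was not tested, and in bulk RNA fewer cells of a type and less RNA per cell cannot be told apart. The library names of dE3 and WT share a tag that differs in cKO, so this tag cannot be told apart from the cKO genotype.

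**Figure D1:**
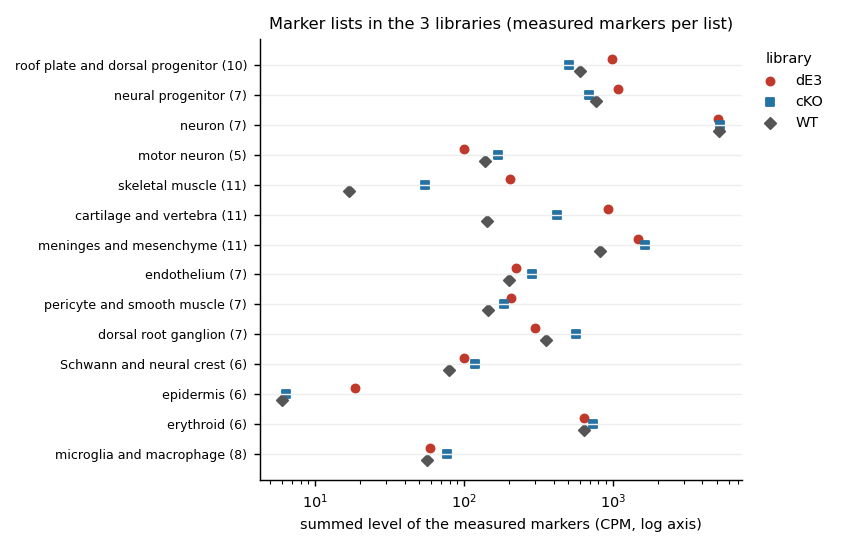
Summed level (CPM, log axis) of the measured markers of each cell type list in the dE3, cKO and WT libraries, with the number of measured markers in brackets; each point is 1 library. The muscle and cartilage sums were highest in dE3 and lowest in WT, while the neuron sums lay close together at 5135, 5281 and 5214 CPM.

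Most genes of the superfamily differed little between the libraries, and those that passed the threshold were nearly all secreted proteins. A gene was called when its ratio of scaled counts was at least 2 in either direction and the 95% interval of the ratio, which covers counting error only, excluded 1. In dE3 against WT, 5 of 49 measured members were higher, where 6.52% of all measured genes were, and 0 were lower, where 3.78% were. The 5 genes were Grem1, Inhba, Bmp4, Tgfb3 and Bmp3. In cKO against WT, 2 of 49 were higher, Tgfbr3 and Bmp4, beside 3.48% of all genes, and 0 were lower, beside 3.41%. In dE3 against cKO, 4 were higher, Inhba, Grem1, Bmp3 and Gdf10, beside 6.62%, and Bmp6 alone was lower, beside 4.38%. In either direction the members' shares were 10.2%, 4.08% and 10.2%, beside 10.3%, 6.89% and 11% of all measured genes, so the family as a whole was not called more often than other genes. The median log2 ratio of the members was 0.12 for dE3 to WT, 0.08 for cKO to WT and -0.08 for dE3 to cKO, against 0.00, 0.00 and 0.02 over all measured genes. The comparisons of dE3 and of cKO with WT share the WT library.

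**Figure D2:**
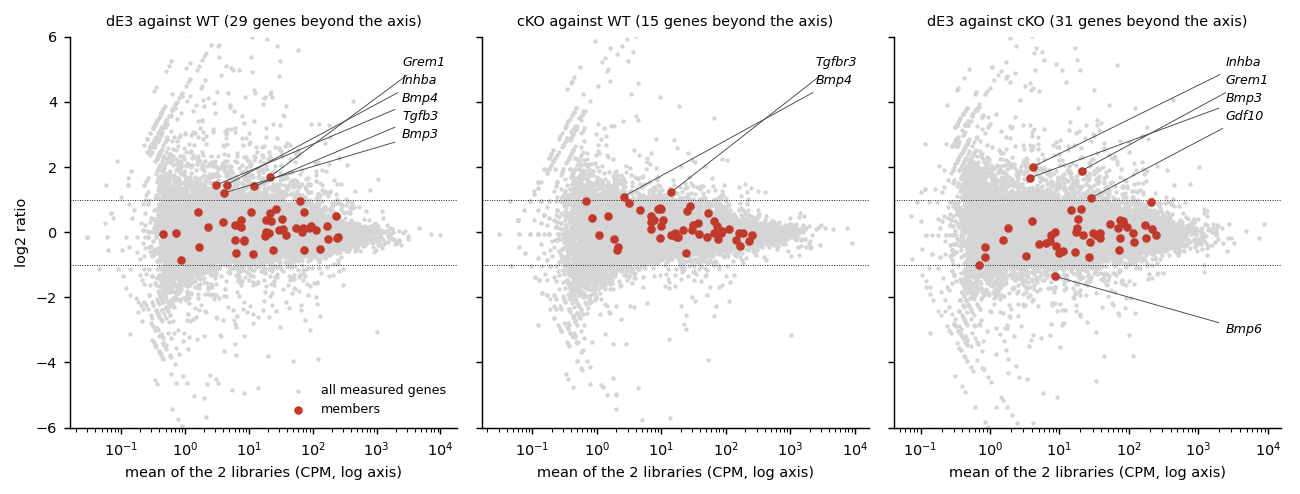
Log2 ratio against the mean of both libraries (CPM, log axis) for all measured genes (grey) and the 49 measured members (red), with dotted lines at 2-fold; 29, 15 and 31 genes lie beyond the axis. Members past the threshold are named, 5 in dE3 against WT, 2 in cKO against WT and 5 in dE3 against cKO, and they lie within the range that many other genes reach.

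The distribution over roles can be counted. Of 24 measured secreted members (ligands, antagonists and the chordin protease), 5 were higher in dE3 than in WT, against 0 of 13 membrane members, 0 of 8 Smads and 0 of 4 Id genes. In cKO against WT, 1 secreted and 1 membrane member were higher. In dE3 against cKO, all 5 calls were secreted members. With 6.52% of all measured genes higher in dE3 than in WT, a count of 0 among 13, 8 or 4 genes is near the share of all genes. These counts describe the libraries, and the difference between roles was not tested.

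**Figure D3:**
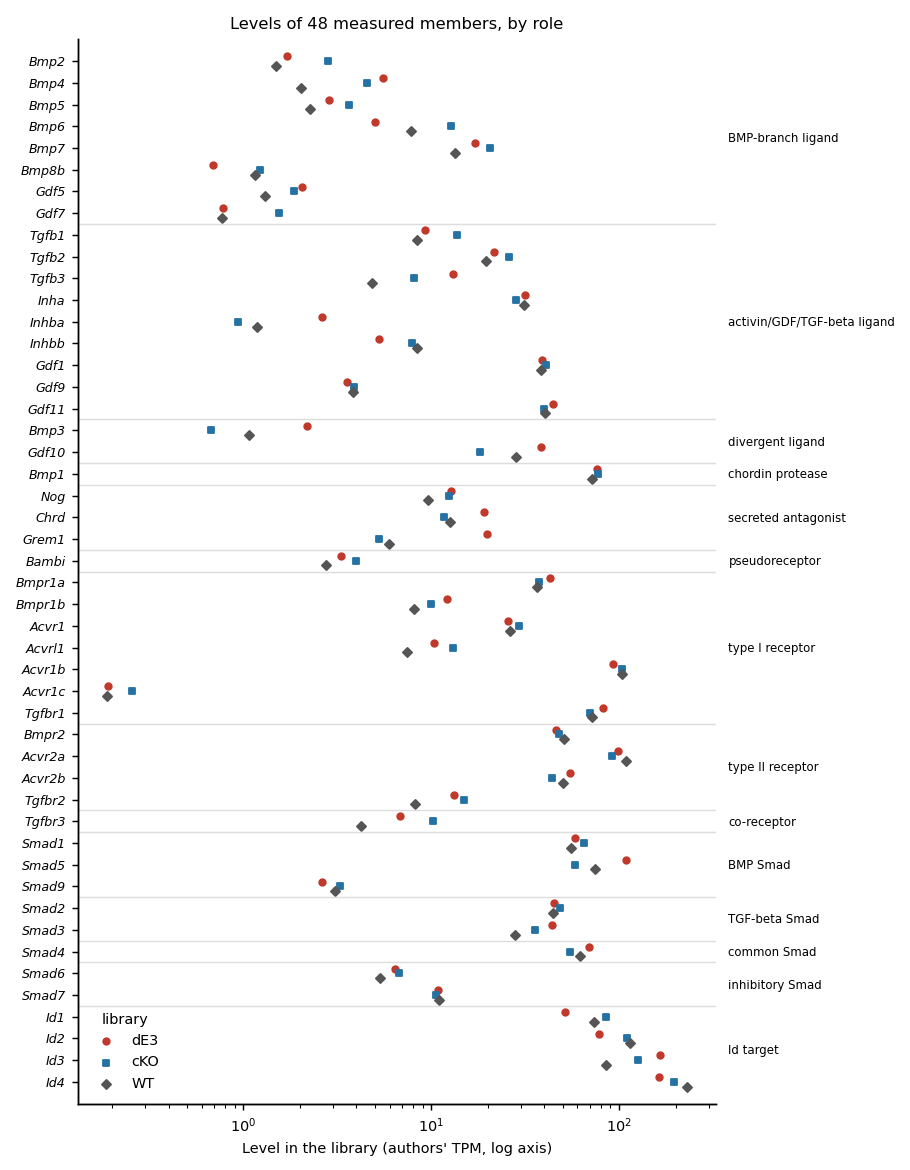
Level of 48 of the 49 measured members in the dE3, cKO and WT libraries in the authors' TPM (log axis), ordered by role; each point is 1 library. The Id genes stand at the right, up to 229 TPM for Id4 in WT, and most BMP ligands lie at the left, led by Bmp7 at 20.6 TPM in cKO.

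The TPM scale of the authors divides by transcript length and allows levels of different genes to be compared. On it, the summed type I and the summed type II receptors stood above the summed BMP-branch ligands. The receptor sums also hold activin and TGF-β receptors, so these sets are unlike. In WT, Acvr1b gave 41.0% and Tgfbr1 28.1% of the type I sum. Type I receptors summed to 266, 264 and 254 TPM in dE3, cKO and WT, and type II receptors to 213, 198 and 219 TPM. BMP-branch ligands summed to 36.5, 49.6 and 30.8 TPM, with Bmp7 giving 46.8%, 41.6% and 43.3% of that sum. Ligands of the activin, GDF and TGF-β branch summed to 170, 169 and 156 TPM, led by Gdf11 and Gdf1. Members at 10 TPM or more numbered 31 in dE3, 31 in cKO and 25 in WT, and those at 50 TPM or more 12, 11 and 13. The shares of all genes at these levels were not computed.

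Among the measured BMP-branch ligands, Bmp4 alone was past the threshold relative to WT, and it was so in both mutants. Bmp4 (ENSMUSG00000021835, chromosome 14, 46383520 to 46390669, minus strand, GRCm38), a ligand of the dorsal ectoderm and roof plate, had 159 counts in dE3, 117 in cKO and 53 in WT. It was 2.74-fold higher in dE3 than in WT (1.99 to 3.81) and 2.14-fold higher in cKO (1.53 to 3.01). Both mutant libraries thus lay above WT, and the dE3 to cKO ratio was 1.28 (1.00 to 1.64). Of its counts, 97.9% came from 1 transcript.

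The median log2 ratio of the BMP-branch ligands to WT was higher in the cKO library than in the dE3 library. Of the 8 measured, Bmp4 included, 7 had a positive log2 ratio in cKO against WT, with a median of 0.69. In dE3 against WT 5 had one, with a median of 0.24. Over all measured genes 50.3% were positive in cKO against WT and 50.5% in dE3 against WT. The cKO to WT intervals of Gdf5 (0.922 to 2.15) and Bmp8b (0.574 to 1.54) included 1. The 8 genes come from the same libraries and are not replicates. Bmp7, a roof plate ligand and the most abundant of them per length, stood at 24.9 CPM in dE3, 30.4 in cKO and 19.5 in WT, a ratio of 1.27 (1.15 to 1.41) in dE3 and 1.56 (1.41 to 1.72) in cKO. Bmp2 had 86, 135 and 70 counts, and was 1.87-fold higher in cKO than in WT (1.39 to 2.53), just under the threshold. Bmp5 had 155, 187 and 113 counts, but 46.2% of its words (31-base stretches of its transcripts) also occur in the antisense gene Gm26903. These 3 ligands were highest in cKO and lowest in WT.

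Bmp6 (ENSMUSG00000039004, chromosome 13, 38345716 to 38499728, plus strand), a ligand close to Bmp5 and Bmp7, was split between the mutants. It stood at 4.88 CPM in dE3, 12.5 in cKO and 7.64 in WT. It was 2.56-fold lower in dE3 than in cKO (2.13 to 3.07). Against WT it was 1.57-fold lower in dE3 (1.28 to 1.91) and 1.63-fold higher in cKO (1.39 to 1.92), neither past 2-fold, so WT lay between the mutants. It overlaps Txndc5 on the opposite strand by 224 bases, with 5.01% of words shared. Txndc5 itself had 2073, 4110 and 1639 counts in dE3, cKO and WT, and its part in the Bmp6 counts was not tested. Markers of dorsal root ganglion, which lies beside the cord, summed to 301, 563 and 356 CPM, in the same order over the 3 libraries. Within that list Pou4f1 went the other way, at 107, 76.3 and 100 CPM. The 5 markers of motor neurons, cells of the cord itself, summed to 100, 168 and 139 CPM, also in the order of Bmp6. No marker of either list was at 0 in any library. The part of these cells in the Bmp6 difference was not tested either.

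Gdf7, a roof plate ligand needed for a class of dorsal interneurons, was near the count minimum with 16 counts in dE3, 30 in cKO and 15 in WT. The ratio of dE3 to cKO was 0.503 (0.256 to 0.952), just short of the threshold, and it passed with other size factors. Gdf5, a ligand of joints and cartilage, had 67, 58 and 40 counts, and 39.7% of its words occur in an overlapping gene of the opposite strand. Bmp8b had 22, 35 and 36 counts and overlaps Ppie and Oxct2b. At these counts the intervals of the 3 genes are wide.

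Of the TGF-β ligands, Tgfb3 was higher in dE3 while Tgfb1 and Tgfb2 were not past the threshold. Tgfb3, known for its role in palate fusion (ENSMUSG00000021253, chromosome 12, 86056745 to 86079041, minus strand) stood at 17.8 CPM in dE3, 11.1 in cKO and 6.73 in WT. It was 2.65-fold higher in dE3 than in WT (2.27 to 3.11), and 1.65-fold in cKO (1.39 to 1.96). The gene shares 9.96% of its words with other genes and overlaps Ttll5 on the opposite strand, which had 808, 728 and 617 counts. Tgfb1, the ligand of many vessel and immune cells, stood at 8.05, 12.1 and 7.23 CPM, a ratio to WT of 1.11 in dE3 (0.932 to 1.33) and 1.68 in cKO (1.43 to 1.98). Tgfb2, the most abundant TGF-β per length at 21.6, 25.8 and 19.5 TPM, had ratios of 1.07 (0.986 to 1.16) and 1.22 (1.12 to 1.32). Tgfb1 and Tgfb2 were thus highest in cKO and Tgfb3 in dE3. Endothelial markers, 7 genes with none at 0, summed to 223, 286 and 200 CPM, also highest in cKO. Pecam1 and Emcn of that list were instead highest in dE3. The part of endothelium in Tgfb1 was not tested.

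The inhibin and activin subunits differed among themselves. Inhba (ENSMUSG00000041324, chromosome 13, 16011851 to 16031621, plus strand), which encodes the subunit of activin A, had 236 counts in dE3, 55 in cKO and 78 in WT. It was 2.76-fold higher in dE3 than in WT (2.13 to 3.61) and 4.04-fold higher than in cKO (3.0 to 5.53). Against WT the cKO library was 1.47-fold lower (1.02 to 2.11), not past 2-fold. By the TPM of the authors the dE3 to cKO log2 ratio was 1.48, against 2.02 by counts, with a second transcript at 0 counts in dE3, 9 in cKO and 8 in WT. Inhbb, the subunit of activin B, went the other way in dE3, at 9.04, 13.6 and 14.5 CPM, 1.61-fold lower than WT (1.39 to 1.86). Inha, whose product turns activin subunits into the antagonist inhibin, had 658, 562 and 597 counts with a ratio of 1.00 (0.898 to 1.12) in dE3 against WT. So of the 3 measured subunits, 1 was at least 2-fold higher in dE3.

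Gdf11, which newborn spinal neurons secrete and which limits the period of neuron production, stood at 44.5 TPM in dE3, 39.9 in cKO and 40.3 in WT, the most abundant ligand in dE3 and WT. Its ratios to WT were 1.09 (1.03 to 1.15) and 0.985 (0.928 to 1.05), intervals that lie far from 2-fold. Gdf1 had 38.7, 40.6 and 38.5 TPM, but 100% of its words lie within Cers1, which shares its transcript, and Cers1 had 856, 914 and 860 counts, so the counts of the 2 genes cannot be assigned with certainty. Gdf9, known from the oocyte, had 50, 56 and 63 counts.

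The divergent ligands Bmp3 and Gdf10 are close relatives of each other, and Bmp3 opposes BMP signals. Both were called higher in dE3 relative to cKO. WT lay between the mutants, though for Bmp3 the cKO to WT interval (0.510 to 1.03) included 1. Bmp3 (ENSMUSG00000029335, chromosome 5, 98854415 to 98884396, plus strand) had 203 counts in dE3, 60 in cKO and 80 in WT, 2.31-fold higher in dE3 than in WT (1.78 to 3.04) and 3.19-fold higher than in cKO (2.38 to 4.33). In dE3, 63 of its counts came from a transcript with 0 counts in both other libraries, and without it the log2 ratio to WT was 0.67, short of the threshold. Gdf10 (ENSMUSG00000021943, chromosome 14, 33923587 to 33935280, plus strand), at 38.5, 18.5 and 29.1 CPM, was 2.08-fold higher in dE3 than in cKO (1.89 to 2.29). Against WT it was 1.32-fold higher in dE3 (1.22 to 1.44) and 1.57-fold lower in cKO (1.42 to 1.74), neither past 2-fold.

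**Figure D4:**
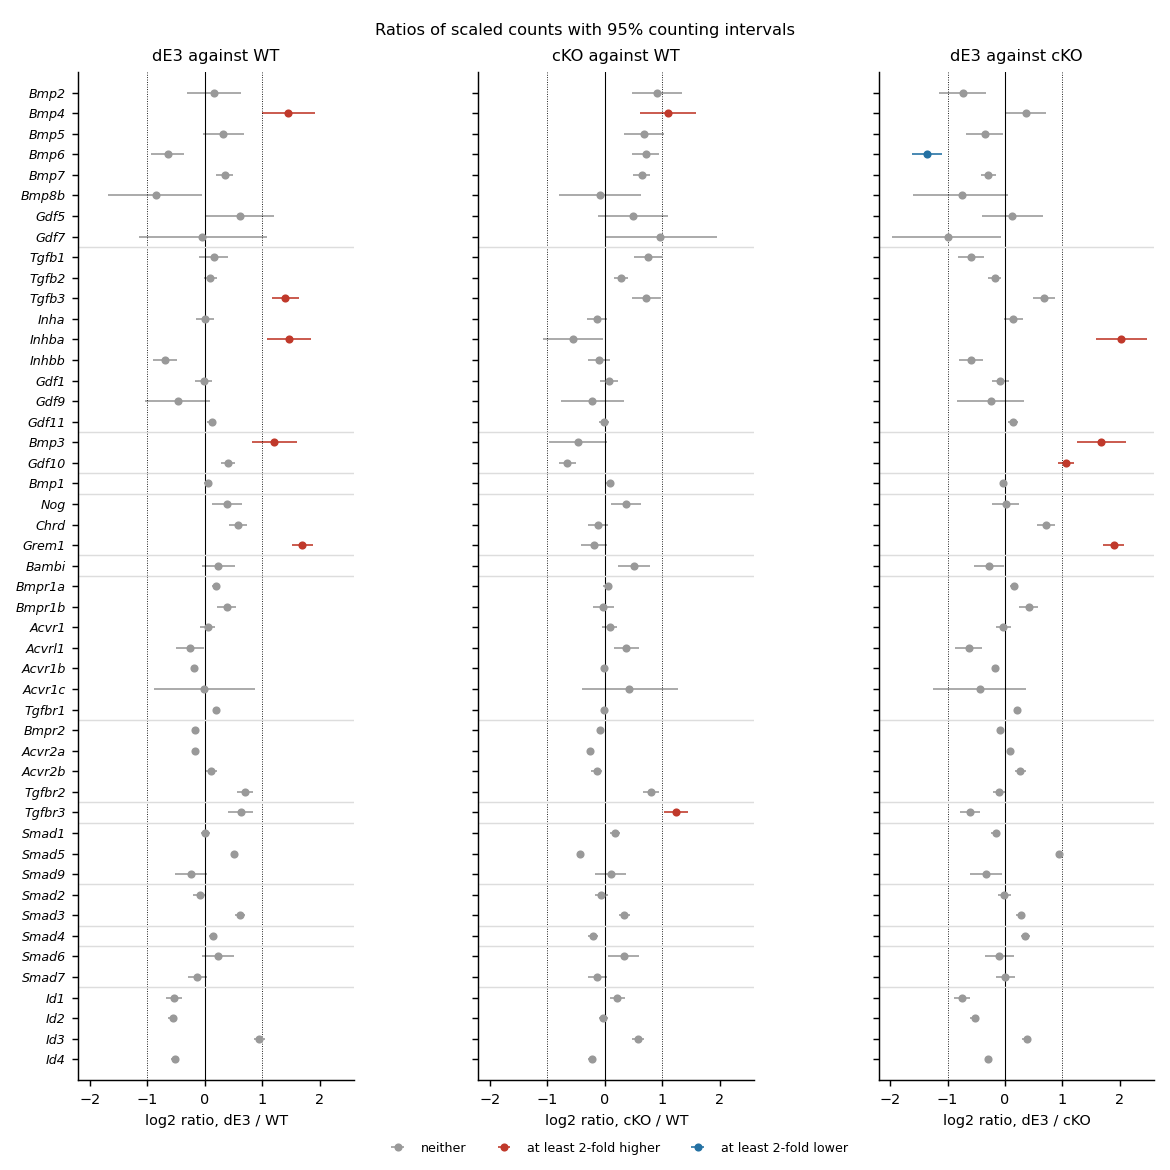
Log2 ratio of scaled counts for 48 of the 49 measured members in the 3 comparisons, with 95% counting intervals as bars, a line at 0 and dotted lines at 2-fold. Red and blue mark members at least 2-fold higher and lower, and grey the rest. Grem1 lies at 1.70 in dE3 against WT and at -0.19 in cKO against WT, and most receptors and Smads lie near 0 with short bars.

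Among the secreted antagonists, Grem1 stood out in dE3. Grem1 (ENSMUSG00000074934, chromosome 2, 113746164 to 113758646, minus strand) encodes gremlin, which binds Bmp2, Bmp4 and Bmp7, and had 1152 counts in dE3, 293 in cKO and 323 in WT. It was 3.25-fold higher in dE3 than in WT (2.87 to 3.69) and 3.70-fold higher than in cKO (3.26 to 4.23), while cKO and WT were close, at 8.87 and 10.1 CPM. All of its counts came from 1 transcript, and it shared 1.17% of its words with other genes. Summed markers of epidermis, 6 measured genes with Krt8 at 0 in WT, were 18.6, 6.36 and 5.95 CPM, and those of roof plate and dorsal progenitors, 10 genes with none at 0, were 988, 505 and 605 CPM. The second sum was carried mostly by Zic1, at 835, 441 and 534 CPM. Of its 10 genes, 2 were called higher in dE3 relative to WT (Msx1 and Pax3) and 2 lower (Pax7 and Wnt1). The part of these markers in the Grem1 values was not tested. Chrd, the gene of chordin, stood at 25.5, 15.6 and 17.0 CPM, 1.5-fold higher in dE3 than in WT (1.35 to 1.67) but not past 2-fold. Nog, the gene of noggin, was alike in the mutants at 8.70 and 8.63 CPM, against 6.67 in WT, with ratios of 1.31 (1.09 to 1.56) and 1.29 (1.08 to 1.55). On the TPM scale Grem1 stood at 19.7 in dE3, 5.26 in cKO and 5.96 in WT, Chrd at 19.1, 11.7 and 12.6, and Nog at 12.8, 12.5 and 9.62. Grem1 and Chrd were thus alike in level in dE3, where Chrd and Nog stood above Grem1 in cKO and WT. Bmp1, the protease that cleaves chordin and procollagens, lay at 75.9, 76.8 and 71.6 TPM with ratios of 1.04 and 1.07.

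Promoters (RefSeq, GRCm38.p6, 250 bases before to 50 after the start, read on the strand of the gene) are shown for Grem1, Bmp4 and Inhba, because these 3 genes were called higher in dE3 relative to WT and have an entry there. Capitals mark any match, on either strand, to GGCGCC or GTCTAGAC, which Smad complexes bind, or to CTTTGAT or CTTTGAA, which TCF/LEF factors bind.
Grem1, chr2:113758599-113758898, minus strand: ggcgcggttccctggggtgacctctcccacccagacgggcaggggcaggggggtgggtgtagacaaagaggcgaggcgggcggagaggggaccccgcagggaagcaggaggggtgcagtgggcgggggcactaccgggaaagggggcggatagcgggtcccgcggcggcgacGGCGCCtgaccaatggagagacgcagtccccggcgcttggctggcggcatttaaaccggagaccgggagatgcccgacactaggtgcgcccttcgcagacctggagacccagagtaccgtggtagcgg
Bmp4, chr14:46390620-46390919, minus strand: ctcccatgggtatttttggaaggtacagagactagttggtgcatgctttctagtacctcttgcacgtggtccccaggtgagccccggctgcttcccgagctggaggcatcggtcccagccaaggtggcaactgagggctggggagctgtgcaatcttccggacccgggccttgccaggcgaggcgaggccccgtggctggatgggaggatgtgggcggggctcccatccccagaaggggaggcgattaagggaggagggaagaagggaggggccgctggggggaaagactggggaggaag
Inhba, chr13:16011601-16011900, plus strand: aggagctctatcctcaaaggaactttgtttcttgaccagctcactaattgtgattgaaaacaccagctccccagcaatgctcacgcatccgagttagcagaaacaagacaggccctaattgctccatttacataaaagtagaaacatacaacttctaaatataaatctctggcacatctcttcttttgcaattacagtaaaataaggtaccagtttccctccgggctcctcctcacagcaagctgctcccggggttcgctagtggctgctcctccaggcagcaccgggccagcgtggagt
Grem1 held 1 GGCGCC, and Bmp4 and Inhba held no match to any of the 4 motifs, which says only that these letters are not in these windows. The G and C share was 70.7% in Grem1, 64.0% in Bmp4 and 47.7% in Inhba.

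Receptor genes were nearly level across the libraries. None of the 11 type I and type II receptors was called in any comparison of gene counts. In the 3 comparisons 10.3%, 6.89% and 11% of all measured genes were called, so 0 of 11 is near that share. In dE3 against WT 10 of 11 lay within 0.5 of 0 on the log2 scale, as in cKO against WT. The quartiles of all measured genes were -0.23 and 0.25, and -0.21 and 0.21, so most other genes lay within 0.5 too. Bmpr1a, the main type I receptor for BMPs, stood at 99.3 CPM in dE3, 89.2 in cKO and 86.3 in WT, with ratios of 1.15 (1.09 to 1.21) and 1.03 (0.981 to 1.09). Bmpr1b, its partner in dorsal patterning, had 747, 529 and 521 counts, a ratio of 1.31 (1.17 to 1.46) in dE3. In cKO its log2 ratio was -0.03 by counts and 0.30 by TPM, so its direction there depends on the unit. Bmpr2, the BMP type II receptor, had 8320, 8299 and 8475 counts, and its ratios of 0.895 (0.868 to 0.923) and 0.948 (0.919 to 0.977) lie far from 2-fold in these libraries.

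The receptors shared with activins were the most abundant per length. Acvr2a, a type II receptor, stood at 98.5, 91.4 and 109 TPM, and Acvr1b, the activin type I receptor, at 92.5, 104 and 104 TPM, with ratios to WT between 0.835 and 0.991. Tgfbr1, the TGF-β type I receptor, stood at 82.1, 70.3 and 71.4 TPM. Acvr2b, another type II receptor, had 2012, 1582 and 1693 counts. Acvr1, a type I receptor for BMPs, lay at 25.6, 29.3 and 26.4 TPM. Acvr1c was nearly silent, with 25, 32 and 23 counts.

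The TGF-β receptors of mesenchyme and vessels were the exception. Tgfbr3 (ENSMUSG00000029287, chromosome 5, 107106570 to 107289629, minus strand), which encodes betaglycan, a co-receptor that presents TGF-β2, had 462 counts in dE3, 663 in cKO and 273 in WT. It was 2.35-fold higher in cKO than in WT (2.04 to 2.72), the only receptor gene called by gene counts, and 1.54-fold in dE3 (1.33 to 1.80). Tgfbr2, the TGF-β type II receptor, stood at 32.8, 35.2 and 20.2 CPM, with ratios of 1.63 (1.48 to 1.79) and 1.74 (1.58 to 1.92). Acvrl1, a receptor of endothelium, stood at 7.76, 12.1 and 9.29 CPM. In dE3 against WT its log2 ratio was -0.26 by counts but 0.48 by TPM, so no direction is given. For Tgfbr2 and Tgfbr3 both mutants lay above WT, as did the summed meninges and mesenchyme markers at 1.82-fold in dE3 and 2.03-fold in cKO. That sum was carried mostly by Col3a1, Col1a2 and Col1a1, with Col3a1 at 476, 576 and 247 CPM. Within the list Zic4 was lower in cKO than in WT, at a ratio of 0.778 (0.740 to 0.818), and Dcn had ratios of only 1.16 and 1.18. The part of mesenchyme in these differences was not tested.

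The 8 Smad genes did not pass 2-fold in any comparison of gene counts, where 10.3%, 6.89% and 11% of all measured genes were called. Smad5, a receptor Smad of the BMP branch, came nearest, at 270 CPM in dE3, 141 in cKO and 190 in WT. Its ratio was 1.92 (1.85 to 1.98) in dE3 against cKO, 1.42 (1.37 to 1.47) in dE3 against WT and 0.741 (0.713 to 0.770) in cKO against WT, so WT lay between the mutants. On the TPM scale its share of the 3 BMP-branch receptor Smads together was 64.2%, 46.1% and 56.0%. Smad1, of the same branch, was level at 69.2, 77.7 and 68.7 CPM, and Smad9 was low at 2.63, 3.29 and 3.06 TPM. On the TGF-β branch, Smad2 had 1322, 1261 and 1278 counts, while Smad3 stood at 88.8, 73.3 and 57.9 CPM, with ratios to WT of 1.53 (1.45 to 1.63) and 1.27 (1.19 to 1.35). Smad4, the common partner, had 3201, 2365 and 2642 counts. The inhibitory Smads, which BMP and TGF-β signals induce as feedback, were nearly level. Smad6 had 256, 258 and 199 counts and Smad7 had 613, 575 and 610. Bambi, a pseudoreceptor that BMP signals also induce, had 235, 268 and 182 counts, with ratios of 1.18 (0.966 to 1.44) and 1.42 (1.18 to 1.73).

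The 4 Id genes did not move together in dE3: Id3 was higher and Id1, Id2 and Id4 were lower, none past 2-fold. Id3 stood at 82.8 CPM in dE3, 63.7 in cKO and 42.7 in WT, 1.94-fold higher in dE3 than in WT (1.82 to 2.07) and 1.49-fold in cKO (1.39 to 1.60), so it ordered dE3 above cKO above WT. Id1 stood at 19.6, 32.9 and 28.4 CPM, 1.45-fold lower in dE3 than in WT (1.31 to 1.60). Id2 stood at 58.5, 84.6 and 86.2 CPM, 1.47-fold lower (1.39 to 1.56). Id4, which is strong in neural progenitors, stood at 108, 132 and 155 CPM, 1.44-fold lower (1.38 to 1.5). In cKO the other 3 lay nearer to WT, with ratios of 1.16 for Id1, 0.981 for Id2 and 0.851 for Id4. All 4 intervals in dE3 against WT excluded 1. The summed Id level was 458 TPM in dE3, 518 in cKO and 501 in WT, while the share of Id3 in it was 36.2%, 24.3% and 16.9% and that of Id4 35.5%, 37.9% and 45.8%. In dE3 Id3 and Id4 were therefore about equal, where Id4 led in WT. Id4 lies opposite the antisense gene A330033J07Rik, which had 130, 47 and 88 counts, and Id1 and Id3 share no word with another gene. Id3 is also strong in vessels and mesenchyme, whose summed markers were higher in both mutants than in WT. For endothelium the sum was only 1.11-fold higher in dE3 and 1.43-fold in cKO. Its markers differed in dE3, with Cldn5 1.58-fold lower than in WT (1.45 to 1.73) and Flt1 level at a ratio of 0.995. Zic4 of the mesenchyme list was lower in cKO. The part of these cells in the Id3 values was not tested.

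The promoters of Id3, Id2 and Id4 (RefSeq, same window and marks) are shown because these genes went opposite ways in dE3.
Id3, chr4:136143572-136143871, plus strand: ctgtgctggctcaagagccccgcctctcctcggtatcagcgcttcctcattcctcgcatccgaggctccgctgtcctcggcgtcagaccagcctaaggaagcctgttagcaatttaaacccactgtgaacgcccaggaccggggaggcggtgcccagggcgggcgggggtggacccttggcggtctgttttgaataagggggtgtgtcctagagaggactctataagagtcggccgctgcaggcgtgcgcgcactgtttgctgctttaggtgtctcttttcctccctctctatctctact
Id2, chr12:25096043-25096342, minus strand: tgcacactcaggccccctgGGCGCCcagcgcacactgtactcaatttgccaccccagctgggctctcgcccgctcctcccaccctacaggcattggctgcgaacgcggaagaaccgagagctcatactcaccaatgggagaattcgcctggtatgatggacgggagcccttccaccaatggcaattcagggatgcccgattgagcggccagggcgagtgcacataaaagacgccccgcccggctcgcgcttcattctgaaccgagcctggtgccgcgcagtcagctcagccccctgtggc
Id4, chr13:48260866-48261165, plus strand: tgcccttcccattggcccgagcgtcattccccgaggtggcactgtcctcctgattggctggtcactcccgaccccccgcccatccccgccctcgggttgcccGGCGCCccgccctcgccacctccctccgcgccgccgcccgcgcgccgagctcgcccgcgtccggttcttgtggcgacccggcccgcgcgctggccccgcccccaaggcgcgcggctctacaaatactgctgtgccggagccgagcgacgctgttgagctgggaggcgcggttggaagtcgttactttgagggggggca
In these windows Id2 and Id4 each held 1 GGCGCC, and Id3 held no match to the 4 motifs. Grem1, higher in dE3, held 1 GGCGCC as well, and Id1, lower in dE3, has no promoter entry. A link between motif and direction was not tested. In the whole table, 11.9% of 32851 promoters held GGCGCC, against 13 of 47 (27.7%) of the promoters listed for 39 of the superfamily genes, where a gene can have more than 1 window. The median G and C share was 64.0% for these and 52.7% for all, so the counts are not matched on base composition. CTTTGAT was in 0 of 47 and 3.73% of all, CTTTGAA in 2 of 47 and 5.14%, GTCTAGAC in 1 (Smad6) and 0.213%, and the general E-box CANNTG in 25 of 47 and 72.3%.

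Genes of the pathway outside the family rule were taken from lists of 58 symbols, of which 46 were measured. The dE3 library had 13 of them called higher and 1 called lower relative to WT, and the cKO library had 5 and 2. Relative to cKO, dE3 had 9 and 2. Of all measured genes, 6.52% were higher and 3.78% lower in dE3 relative to WT, and 3.48% and 3.41% in cKO relative to WT. For dE3 relative to cKO these shares were 6.62% and 4.38%. The lists were chosen with earlier results of these data known, so their counts are not independent support. The median log2 ratios of the 46 genes were 0.20, 0.16 and 0.14. By list, 5 of 15 further extracellular modulators, 1 of 16 co-receptors and intracellular regulators and 7 of 16 target genes were called higher in dE3 relative to WT. 1 gene, Skil, is on both of the last lists.

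The Msx homeobox genes are BMP targets of the dorsal progenitors. Msx1 stood at 47.1 CPM in dE3, 10.2 in cKO and 14.2 in WT, 3.32-fold higher in dE3 than in WT (2.99 to 3.70). Msx2 stood at 8.47, 1.30 and 2.07 CPM, and Msx3 at 58.3, 10.7 and 23.4 CPM. All 3 were called higher in dE3 relative to WT and to cKO. In cKO, Msx3 alone was called relative to WT, 2.19-fold lower (1.92 to 2.49). Without 1 transcript each, the calls of Msx2 in dE3 and of Msx3 in cKO were lost. Msx1 is also on the roof plate marker list.

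Some further antagonists were higher in dE3 beside Grem1, and others were not. Nbl1 went the other way, at 23.1 CPM in dE3, 42.8 in cKO and 29.0 in WT, 1.26-fold lower in dE3 than in WT (1.14 to 1.38). Dand5, Bmper and Twsg1 had dE3 to WT ratios of 0.929 (0.766 to 1.13), 1.10 (0.958 to 1.26) and 1.25 (1.19 to 1.31). Sostdc1, an antagonist of both BMP and Wnt signals, had 627 counts in dE3, 126 in cKO and 134 in WT, 4.27-fold higher in dE3 than in WT (3.53 to 5.18). Fst, the gene of the activin antagonist follistatin, had 344, 116 and 146 counts, 2.15-fold higher (1.76 to 2.63). Chrdl1, a chordin-like antagonist, had 235, 35 and 85 counts, 2.52-fold higher in dE3 (1.96 to 3.27) and 2.51-fold lower in cKO than in WT (1.67 to 3.83). Without 1 transcript of Chrdl1 these log2 ratios were 0.25 and -0.09. In Grem1, Sostdc1, Fst and Chrdl1 the dE3 library was the highest, and the cKO library was near WT or below it. Fstl3, a relative of Fst, had 46, 55 and 23 counts and was called in cKO against WT, at 2.31-fold higher (1.40 to 3.95).

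On the TGF-β side, Ltbp1, which holds latent TGF-β in the matrix, stood at 51.6 CPM in dE3, 17.7 in cKO and 12.7 in WT, 4.05-fold higher in dE3 than in WT (3.64 to 4.53). Tgif1, a corepressor of Smads, stood at 30.8, 11.6 and 7.95 CPM, 3.88-fold higher (3.38 to 4.47). Tgfbi and Ctgf, matrix proteins induced by TGF-β, were higher in both mutants. Tgfbi stood at 32.1, 19.5 and 9.45 CPM and Ctgf at 14.5, 9.78 and 4.88 CPM. The cKO call of Ctgf, at 2.0-fold (1.65 to 2.44), fell just short of 2-fold by TPM, at a log2 ratio of 0.95. Without 1 transcript the log2 ratio was 1.2, with a counting interval that no longer excluded 1. Sp7, an osteoblast factor, had 73, 59 and 26 counts, Dlx5 had 28, 23 and 0 counts, at least 8.51-fold higher in dE3 against a floor of 3 counts in WT, and Mstn, the muscle growth inhibitor, had 32, 15 and 6 counts. Ltbp1, Tgif1, Tgfbi, Ctgf, Sp7, Dlx5 and Mstn all had values in the order dE3 above cKO above WT, the order of the summed muscle and cartilage markers. The dE3 to cKO intervals of Sp7 (0.816 to 1.67) and Dlx5 (0.637 to 2.08) included 1, as did the cKO to WT interval of Mstn (0.887 to 7.61). Of the members called higher in dE3 relative to WT, Bmp4 and Tgfb3 also ordered dE3 above cKO above WT. The cKO to WT ratio was 0.878 (0.747 to 1.03) for Grem1, 0.682 (0.474 to 0.976) for Inhba and 0.726 (0.510 to 1.03) for Bmp3. For Grem1 and Bmp3 the interval includes 1, so their order of cKO and WT is not settled. The part of muscle and cartilage in these genes was not tested.

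Few intracellular regulators were called. Ppm1a, a phosphatase that acts on Smads, stood at 78.5 CPM in dE3, 91.5 in cKO and 169 in WT, 2.15-fold lower in dE3 (2.06 to 2.26), but its log2 ratio of -1.11 was 0.15 without 1 transcript, and the TPM ratio did not reach 2-fold. Fkbp1a, which binds type I receptors, stood at 87.2, 182 and 150 CPM, 2.09-fold lower in dE3 than in cKO (2.0 to 2.18), a call lost without 1 transcript. Gata3, a BMP target elsewhere that also marks spinal interneurons, had 141, 294 and 230 counts, 2.21-fold lower in dE3 than in cKO (1.80 to 2.72).

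**Figure D5:**
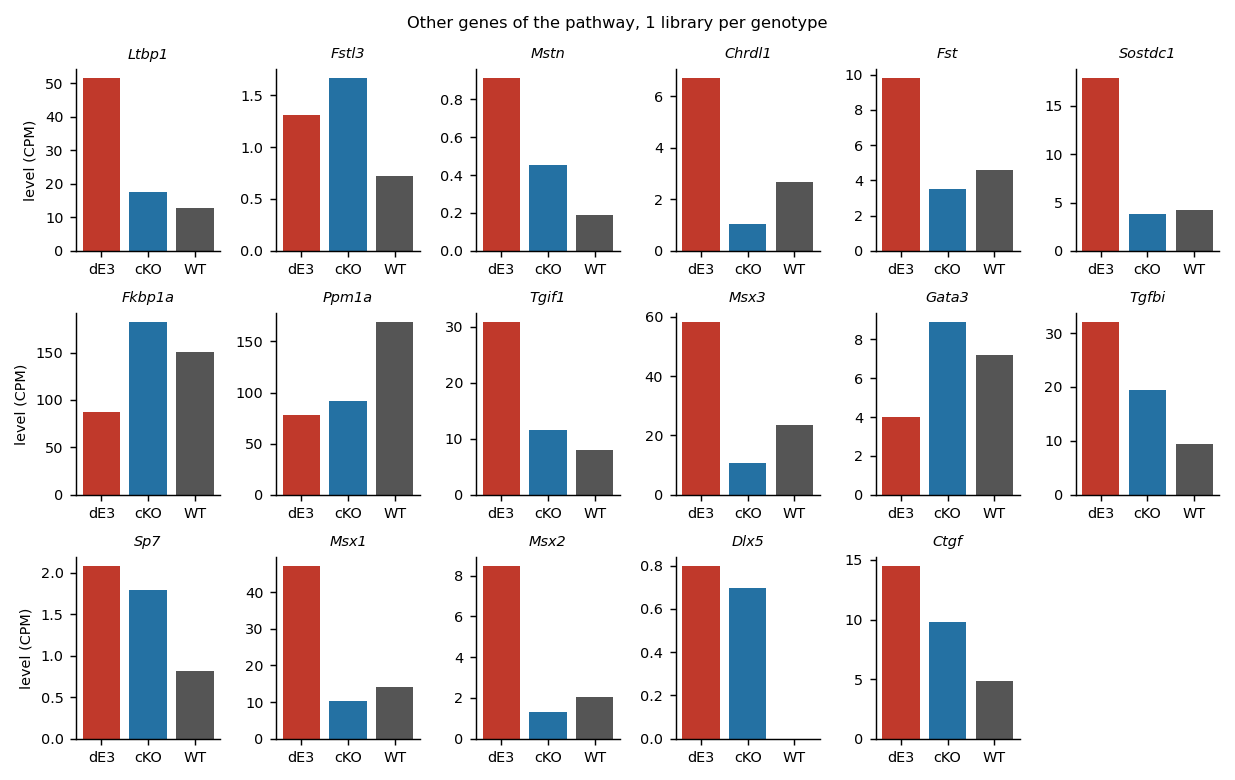
Level (CPM, linear axis from 0) in the dE3, cKO and WT libraries of the 17 measured genes of the other pathway lists that were the Msx genes or passed the threshold in at least 1 comparison; each bar is 1 library with no error. Msx1 stands at 47.1 CPM in dE3 against 14.2 in WT, and Dlx5 has no bar in WT, where its count was 0.

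The 8 members below the count minimum were Bmp8a, Bmp10, Bmp15, Gdf2, Gdf3, Gdf6, Gdf15 and Inhbe. Gdf3 had 0 counts in all 3 libraries. Gdf6, a roof plate and skeletal ligand, came nearest to the minimum with 19 counts in dE3, 8 in cKO and 14 in WT, where Gdf7, with 30 in cKO, was the lowest gene above it. Bmp15 had 12, 6 and 0 counts, Bmp8a 2, 7 and 13, and Inhbe 0, 11 and 3. Gdf15, a stress-induced ligand, had 0, 5 and 4, while Bmp10 and Gdf2, ligands that signal through Acvrl1 on endothelium, reached at most 2 counts. These counts are too low for a comparison. Near the fold threshold, Bmp3 at 2.31-fold was the member just inside and Id3 at 1.94-fold the member just outside in dE3 against WT, and Bmp4 at 2.14-fold and Gdf7 at 1.94-fold in cKO against WT.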

How the data were processed

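Spinal cord RNA was extracted with Trizol and made into libraries with an mRNA-seq kit, per the protocols in the labels. CASAVA, Bowtie2 2.3.2 and GRCm38.p6 are listed without roles in the submitters' processing notes. No source used here names the quantifier, annotation release or strand setting. The authors deposited estimated counts, TPM and FPKM per gene and per transcript, per the file headers. The deposited counts were whole numbers, and gene counts equalled the sum of transcript counts for 51826 of 51826 genes. TPM served for levels between genes and as an alternative; FPKM was not used further.

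Library sizes were scaled by TMM (edgeR 4.0.16, R 4.3.3) on the 18074 genes with at least 20 counts in 1 library, giving factors of 1.01 (dE3), 0.999 (cKO) and 0.993 (WT). Ratios carry exact conditional binomial (Clopper-Pearson) intervals at 95% (scipy 1.17.1). Without molecular identifiers, PCR copies are counted as molecules, so the intervals and the floors describe counting error alone. A count of 0 was set to a floor of 3 counts in that library, equal to 0.0856 CPM in dE3, 0.0908 in cKO and 0.0939 in WT. Words of 31 bases were compared with GENCODE vM21 transcripts, which hold all 57 members. RefSeq promoters matched 39 members. The values of 1 measured member are not reported here, and it is counted only in totals.

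The named genes were the members called in any comparison, up to 3 of each role with the highest TPM in WT, the Id genes, Smad6, Smad7 and Bambi, and called genes of the pathway lists with the Msx genes. Other members named as examples, uncalled genes of the pathway lists, marker genes and overlapping genes were chosen after their values were seen. The members and lists were chosen with earlier results of these data known.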

Additional observations from a re-analysis of the deposited data

How the results depend on the processing

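No paired analysis was possible because each genotype is 1 library, and no library could be left out. The counts of members called higher stayed at 5 (dE3 to WT), 2 (cKO to WT) and 4 (dE3 to cKO) with total counts only, with DESeq2 size factors, with a minimum of 100 counts and, as alternatives chosen after seeing the data, with TMM over all genes and without members sharing 20% or more of their words. By TPM they were 5, 3 and 4. The count lower in dE3 against cKO was 2 instead of 1 with DESeq2 size factors and with TMM over all genes (Gdf7), and at a minimum of 10 or of 1 count, which also gave 1 member lower and 6 higher for dE3 to WT. A 1.5-fold threshold gave 11 higher and 3 lower for dE3 to WT, 10 and 1 for cKO to WT, and 7 and 8 for dE3 to cKO. Shares over all measured genes were computed for the main setting alone, so the counts under other settings have no such share beside them. Without the transcript that differed most, the counts were 5 and 1, 4 and 2, and 7 and 2, but the genes changed. For dE3 to WT, Bmp4, Inhba and Bmp3 were no longer called higher, and Chrd, Acvrl1 and Tgfbr3 were. For cKO to WT, Bmp4 lost its call, Bmpr1b, Tgfbr2 and Smad4 were called higher, and Bmp3 and Acvr2a lower. For dE3 to cKO, Chrd, Acvr1, Bmpr2 and Acvr2a were called higher and Inhba lower. Type I and type II receptors and a Smad, not called above, were thus called here. In this setting the log2 ratio of Bmp4 was -0.13 and that of Inhba -1.55 for dE3 to WT, and Inhba was -1.67 for dE3 to cKO. The transcript left out held 97.9% and 95.4% of their counts. Ppm1a stood at 0.15 for dE3 to WT, and the cause was not tested. Members' medians moved by at most 0.1 on the log2 scale. With 1 library per genotype, depth limits the genes under about 100 counts, and the spread between embryos is unknown.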
